A study of Mus musculus with 2 samples.

Results

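The 8 genes described here are Plvap, Cav1, Cav2, Cavin1, Ehd3, Ehd4, Mfsd2a and Aqp1, chosen by symbol for their part in endothelial caveolae, the diaphragm that spans them, and transport of lipid and water through the vessel wall. All 8 were found among the 31055 features counted. Their levels were read in the cell classes of tumor endothelium (blood endothelial cells, BECs) from WT mice with an orthotopic tumor, either KPC in the pancreas or PyMT in the breast. The hosts were C57BL6 females, 6 weeks old when 100000 KPC or PyMT cells were implanted. After 10 days tumors were digested for 30 minutes, with collagenase D at 500 U per mL for KPC and 400 U per mL for PyMT, and cells carrying CD45, EpCAM, Ter119 or podoplanin were depleted before the sort. Each tumor model had 1 single-cell RNA sequencing library, and the number of mice behind a library is not given in the sources used here. Since the cells of a library share 1 preparation, the comparisons carry no test. Every interval below is a 95% interval for counting error only, and a difference between the libraries cannot be told apart from one between organs, tumor lines, digestions or preparations.

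Caveolae are flask-shaped pits of the plasma membrane that are plentiful in endothelial cells. Caveolin-1 (Cav1) and caveolin-2 (Cav2) form the membrane coat together with the cavins, of which Cavin1 is required for the pit to form, and EHD-family ATPases act at membrane necks and on recycling endosomes. Plvap builds the thin diaphragm over caveolae and fenestrae of capillaries and venules. Mfsd2a, a lysophospholipid transporter of brain capillaries, is known for holding caveolar transcytosis down at the blood-brain barrier, and Aqp1 is the water channel of many microvessels outside the brain.

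Cells were placed in classes by the unique molecular identifiers (UMIs, 1 per captured transcript) of marker pairs, none of which is among the 8 genes. Cells of the 5 vessel classes were 7433 in KPC and 10677 in PyMT: venule (Ackr1 and Selp; 640 and 360 cells), artery (Gja5 and Sema3g; 105 and 126), tip (Apln and Angpt2; 1302 and 1991), Car4/Cd300lg cells (1297 and 2597) and the remaining cells, which met no rule (4089 and 5603). Lymphatic cells (802 and 633) and cells of the tumor class (794 and 379), which depletion by podoplanin and EpCAM would be meant to lower, were also in the sorts. Cells called tumor cells here are those that met the Krt8 and Krt18 rule, and their check genes are given with Plvap below. Check genes outside the rules were compared among venule, artery, tip and Car4/Cd300lg cells only, without the remaining and lymphatic cells. They were highest in their own class for 5 of 5 artery genes and 3 of 4 venule genes in both libraries, and for 3 of 5 tip genes. For the 4 capillary check genes Gpihbp1, Rgcc, Cd36 and Sgk1 this held for 4 in KPC and for 0 in PyMT, so that class is called here by its rule and not as capillary. Depth differed between classes: the median was 1879 UMIs per Car4/Cd300lg cell in KPC against 4254 in PyMT, and 5449.5 against 5845 per tip cell. Cells that met more than 1 rule made up 22.2% of venule, 7.62% of artery, 14.1% of tip and 34.0% of lymphatic cells in KPC, and 52.5%, 19.8%, 40.0% and 26.7% in PyMT. The libraries share 170 cell barcodes, and cells with the same barcode were no more alike (median r of profiles 0.505) than cells paired by neighboring barcodes (0.510).

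Cav1 and Cav2 are neighbors on chromosome 6 on the + strand of GRCm38, Cav2 at chr6:17281185-17289115 and Cav1 at chr6:17306335-17341452, with 17219 bases between them. The other members lie elsewhere: Plvap on chromosome 8 (71497765 to 71511752, - strand), Cavin1 on 11 (100956733 to 100970887, -), Ehd3 on 17 (73804134 to 73832094, +), Ehd4 on 2 (120089175 to 120154606, -), Mfsd2a on 4 (122946850 to 122961188, -) and Aqp1 on 6 (55336432 to 55348555, +). Counted genes also overlap members on the opposite strand. Gtpbp3 overlaps Plvap, with 560 UMIs in KPC and 823 in PyMT, and Gm15581 overlaps Cav1 and Cav2, with 1 and 3 UMIs. Since the caveolin genes lie side by side, the 250 bases before a start of each are shown from RefSeq (GRCm38.p6, + strand, chr6:17280935-17281184 for Cav2 and chr6:17306085-17306334 for Cav1), with every match to the motifs searched in capitals.
Cav2: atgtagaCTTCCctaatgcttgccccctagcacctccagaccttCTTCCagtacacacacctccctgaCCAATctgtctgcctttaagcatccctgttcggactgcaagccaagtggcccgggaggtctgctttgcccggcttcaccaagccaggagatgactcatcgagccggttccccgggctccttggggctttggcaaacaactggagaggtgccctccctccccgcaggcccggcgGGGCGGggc
Cav1: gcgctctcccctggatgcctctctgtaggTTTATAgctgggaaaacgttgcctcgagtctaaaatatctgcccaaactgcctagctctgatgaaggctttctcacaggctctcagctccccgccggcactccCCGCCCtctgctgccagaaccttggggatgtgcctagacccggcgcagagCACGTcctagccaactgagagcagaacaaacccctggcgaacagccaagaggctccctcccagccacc
The motifs were searched on both strands. The ETS core is GGAAG, found in 63.6% of the 27025 gene starts of the RefSeq table in windows of the same length. The GC box is GGGCGG, found in 32.9%, and the CCAAT box is found under its own letters in 34.5%. The hypoxia element core is ACGTG, found in 16.6%, and the nuclear receptor site is AGGTCA, found in 13.8%. The TATA box is TATAAA, found in 13% of windows, and the GATA motif is AGATAA, found in 10.3%. Cav2 held 2 ETS cores, 1 GC box and 1 CCAAT box, and the window of Cav1 shown held 1 hypoxia element core, 1 GC box and 1 TATA box. RefSeq lists another start of Cav1, whose window (chr6:17307390-17307639, + strand) held 0 matches to any of these motifs. These matches describe the sequence and say nothing about which factors bind there.

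Levels are given as CPM, the UMIs of a gene scaled to a total of 1000000 over a class, and are compared between classes and not between genes. The 8 genes fell into different patterns across the vessel. The diaphragm gene Plvap and the water channel Aqp1 stood highest in Car4/Cd300lg cells of KPC and in venule cells of PyMT. For Plvap, however, the venule and Car4/Cd300lg levels of PyMT were close. Of the caveolin genes, Cav1 stood highest in tip cells and Cav2 in artery cells of both libraries, and each was lowest or next to lowest in venule cells. Ehd3 stood highest in venule cells of both libraries. Cavin1 had its highest level in artery cells of both libraries, though within counting error of the next class in each, with a narrow range in PyMT. Mfsd2a was at the detection limit throughout the vessel. In summed levels, fewer cells expressing a gene and less of its RNA per cell cannot be told apart, so the share of cells with a UMI is given beside the levels below, after thinning each cell to 2000 UMIs. Shallower cells are left out of the thinned shares. They were 700 of the 1297 Car4/Cd300lg cells and 65 of the 1302 tip cells in KPC, and 230 of the 2597 Car4/Cd300lg cells in PyMT.

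**Figure D1:**
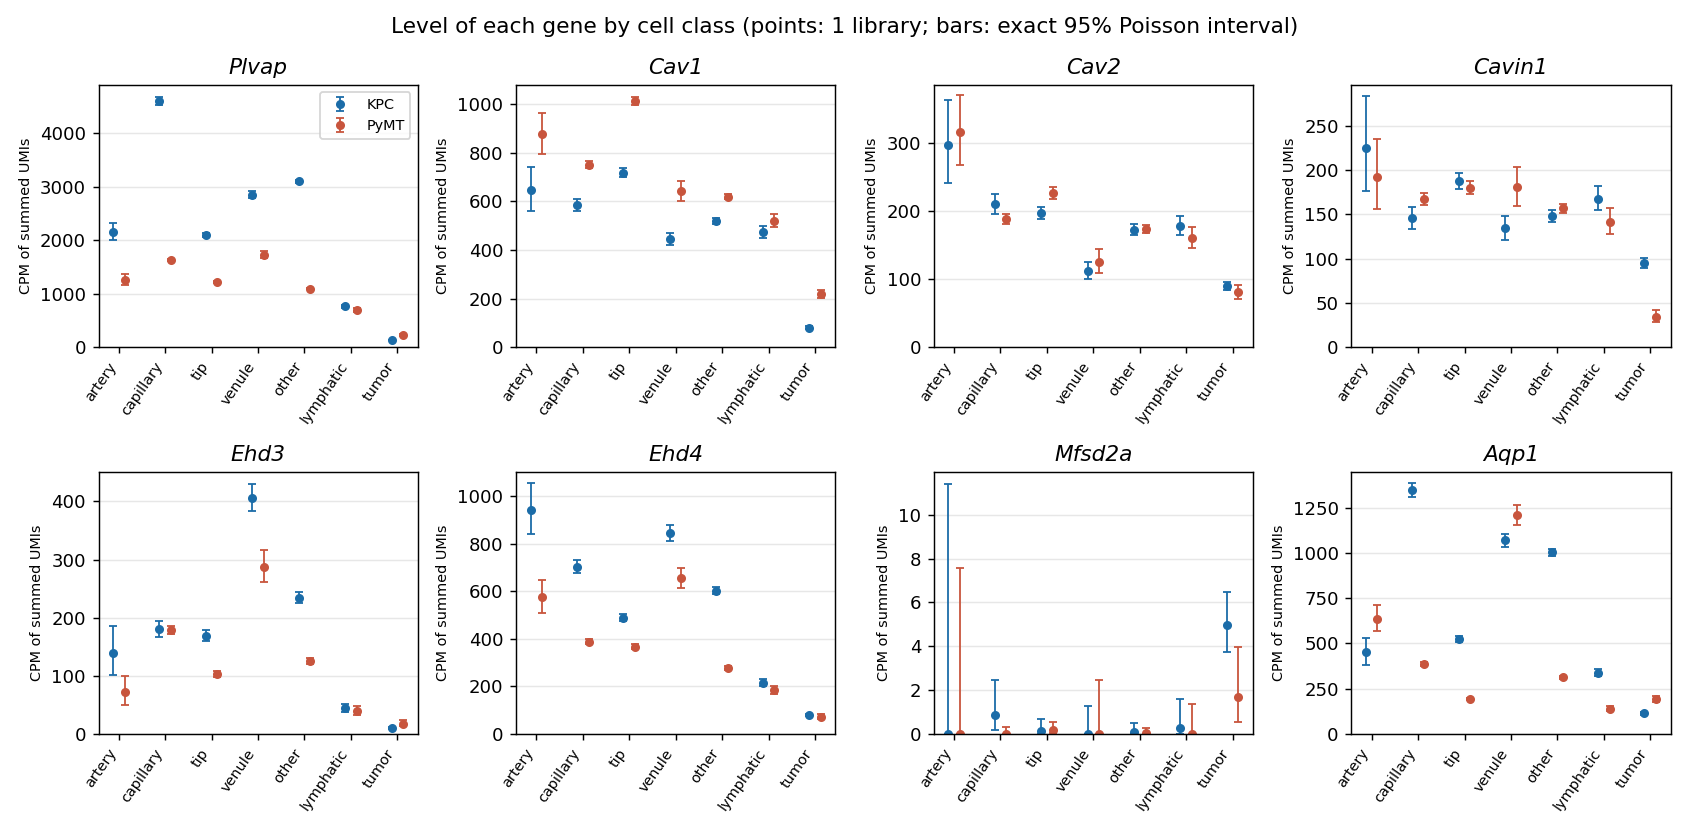
Level of the 8 genes in 5 vessel classes, lymphatic cells and tumor cells of the KPC and PyMT libraries, as CPM of the summed UMIs of a class on a linear axis from 0 ("capillary" stands for the Car4/Cd300lg class and "other" for the remaining vessel cells). Points are 1 library each and bars are exact Poisson intervals; Plvap reached 4605 CPM in the KPC Car4/Cd300lg class against 1627 in PyMT, Ehd3 peaked in venule cells of both, and the points of Mfsd2a lay under 1 CPM in every vessel class, with wide intervals in artery cells.

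Plvap, which encodes the diaphragm protein, was read in most vessel cells. In KPC it was 4605 CPM (interval 4535 to 4676) in Car4/Cd300lg cells, 3101 in the remaining cells, 2853 in venule, 2152 in artery and 2095 in tip cells. In PyMT it was 1729.8 CPM (1664 to 1798) in venule, 1627 in Car4/Cd300lg, 1261 in artery, 1211 in tip and 1092 in the remaining cells. The step between artery and tip cells was within counting error in both libraries, and every other step from one class to the next was outside it. The PyMT step from venule to Car4/Cd300lg cells was small, at a log2 ratio of 0.09, and its sign changed in settings given below. At 2000 UMIs, 99.7% of KPC Car4/Cd300lg cells and 92.6% of those of PyMT held a Plvap UMI (99.3% and 95.7% unthinned), against 17.5% and 27.3% of tumor cells (50.8% and 52.5% unthinned, at medians of 12688 and 6939 UMIs). Among PyMT artery and tip cells the shares at 2000 UMIs were 84.1% and 86.2% (85.7% and 97.3% unthinned). Lymphatic cells stood at 766 CPM in KPC and 694 in PyMT, which is 26.0% and 54.1% of the level over all vessel cells, and tumor cells at 132 and 229 CPM (4.48% and 17.8%). Of the tumor-class cells, 39.2% in KPC and 45.6% in PyMT held a UMI of the endothelial genes Pecam1 or Cdh5. The tumor check genes Epcam and Krt19 stood at 170 and 2789 CPM in the KPC tumor class. In that of PyMT they stood at 19.7 and 1.02 CPM, the latter being the level of 3 counts. The PyMT class is thus cells of 1 rule, and these genes do not establish it as tumor cells. Free RNA, mixed droplets and expression by the tumor cells themselves cannot be told apart in the Plvap values of the tumor class. Values of that class are given beside the genes below for comparison.

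Aqp1, the water channel, had the widest range of the 7 genes with measurable vessel levels in PyMT. It was 1211 CPM (1156 to 1268) in venule cells of PyMT, 636 in artery, 387 in Car4/Cd300lg, 313 in the remaining cells and 193 in tip cells, a 6.28-fold range. In KPC it was 1348 CPM (1310 to 1386) in Car4/Cd300lg, 1069.8 in venule, 1004 in the remaining, 525 in tip and 451 in artery cells. Tip, Car4/Cd300lg and remaining cells were lower in PyMT, while venule and artery cells were higher there. Tumor cells held 113 CPM in KPC and 192 in PyMT, lymphatic cells 337 and 139, and fibroblasts 80.0 and 70.7. Pericyte-class cells stood higher, at 547 CPM in KPC and 706 (563 to 874) in PyMT. In PyMT that class was 27 cells, of which 59.3% met more than 1 rule. The PyMT tip level of 193 (185 to 200.4) was thus close to that of tumor cells and above that of lymphatic cells and fibroblasts. At 2000 UMIs, 67.7% of PyMT venule cells held an Aqp1 UMI, against 32.0% of Car4/Cd300lg cells, 25.5% of tip cells and 28.6% of tumor cells. Unthinned, these shares were 85.0%, 50.5%, 45.3% and 53.0%. In KPC they were 68.7% of venule, 72.9% of Car4/Cd300lg, 51.0% of tip and 18.1% of tumor cells at 2000 UMIs, and 85.5%, 79.9%, 73.0% and 62.6% unthinned.

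Cav1, the principal caveolin of endothelium, was highest in tip cells and low in venule cells of both libraries. In KPC it was 718 CPM (700.1 to 736) in tip, 646 in artery, 584 in Car4/Cd300lg, 519 in the remaining and 444 in venule cells. In PyMT it was 1014 CPM (997 to 1031) in tip, 878 in artery, 751 in Car4/Cd300lg, 642 in venule and 619.6 in the remaining cells. The ends of these orders differed 1.62-fold in KPC and 1.64-fold in PyMT. In KPC the tip, artery and Car4/Cd300lg levels were each within counting error of the next, and in PyMT only venule and remaining cells were. Lymphatic cells carried 473 and 521 CPM, 81.0% and 68.4% of the vessel level, and tumor cells 80.3 and 218.

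Cav2, which travels to the membrane with Cav1, was highest in artery cells and lowest in venule cells. In KPC it was 297 CPM (240.4 to 362) in artery, 209.7 in Car4/Cd300lg, 197 in tip, 172 in the remaining and 112 in venule cells, a 2.66-fold range. In PyMT it was 316 CPM (268 to 369.8) in artery, 226 in tip, 188 in Car4/Cd300lg, 174 in the remaining and 125 in venule cells, a 2.52-fold range. A Cav2 UMI was found at 2000 UMIs in 43.3% of KPC and 47.7% of PyMT artery cells, against 17.4% and 17.9% of venule cells. Tumor cells gave 14.2% and 14.9%. Unthinned, the shares were 56.2% and 66.7% of artery, 35.0% and 35.6% of venule, and 60.6% and 42.5% of tumor cells.

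Cavin1, the cavin that stabilizes the coat, ranged 1.68-fold between vessel classes in KPC and 1.23-fold in PyMT. In KPC it ran from 226 CPM (177 to 284) in artery and 188 in tip cells to 148 in the remaining, 146 in Car4/Cd300lg and 135 in venule cells. In PyMT it ran from 193 CPM (156 to 236) in artery, 181 in venule and 179.9 in tip cells to 167 in Car4/Cd300lg and 157 in the remaining cells. Artery cells were within counting error of the next class in each library. Their log2 ratio was 0.27 (-0.09 to 0.61) over tip cells in KPC and 0.09 (-0.26 to 0.44) over venule cells in PyMT. The interval of the log2 ratio of the highest to the lowest PyMT class (-0.01 to 0.59) includes 0. The small pericyte class of PyMT (27 cells) stood at 445 CPM, a class in which 59.3% of cells met more than 1 rule and which held 90.3% of the vessel level of Plvap.

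Ehd3 and Ehd4, a pair of related membrane-shaping ATPases, shared a high venule level and parted in arteries. Ehd3 was 406 CPM (384 to 430.1) in KPC venule cells, 234 in the remaining, 179.8 in Car4/Cd300lg, 169 in tip and 139 in artery cells. In PyMT it was 287 CPM (261 to 316) in venule, 179 in Car4/Cd300lg, 125 in the remaining, 103 in tip and 71.8 in artery cells, a 4.00-fold range. A UMI of Ehd3 was found at 2000 UMIs in 48.4% and 42.5% of venule cells, 11.9% and 10.3% of artery cells and 1.14% and 2.39% of tumor cells. Unthinned, these were 61.2% and 54.7%, 20.0% and 18.3%, and 6.68% and 9.76%. Ehd4 was 943 CPM (840.0 to 1055) in KPC artery, 846 in venule, 703 in Car4/Cd300lg, 603 in the remaining and 489 in tip cells. In PyMT it was 656 CPM (616 to 698) in venule, 576 in artery, 389 in Car4/Cd300lg, 366 in tip and 278 in the remaining cells. Artery and venule levels of Ehd4 were within counting error of each other in both libraries, whereas artery cells were the lowest class for Ehd3. The lowest Ehd3 steps, from Car4/Cd300lg to tip to artery cells, were within counting error in KPC.

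Mfsd2a, the transporter of brain capillaries, gave 5 UMIs over all 7433 vessel cells of KPC. In PyMT the vessel classes gave 3 UMIs, 2 in tip cells and 1 in the remaining cells. The upper limits were 0.290 CPM in the PyMT Car4/Cd300lg class and 2.45 CPM in that of KPC. Venule and artery cells held 0 UMIs in both libraries, which by 3 counts allows up to 1.02 and 9.27 CPM in KPC and 2.00 and 6.15 in PyMT. KPC tumor cells, with 54 UMIs and 4.96 CPM (3.73 to 6.48), were the class in which Mfsd2a was plainly counted. Being under a mean of 10 CPM, it entered none of the ratios below, which rest on the other 7 members.

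Each class was next set against the Car4/Cd300lg cells of its own library, and a gene was counted as past 2-fold when its log2 ratio was 1 or more in size and its mean level 10 CPM or more. Tip over Car4/Cd300lg cells put 2 of 7 members past 2-fold in KPC, where 7.66% of all genes were, and 1 of 7 in PyMT, where 0.569% were. Plvap had a log2 ratio of -1.14 in KPC (-1.17 to -1.11) and -0.43 in PyMT. Aqp1 stood at -1.36 in KPC and -1.01 in PyMT, lower in tip cells of both. Cav1 went the other way, at 0.30 (0.23 to 0.37) and 0.43 (0.39 to 0.47), higher in tip cells of both libraries but short of 2-fold. Among cells of 2000 to 4000 UMIs alone, the Aqp1 ratio was -1.01 in KPC and -0.68 in PyMT, so in PyMT it no longer passed 2-fold. Ehd3, at -0.09 (-0.23 to 0.05) in KPC and -0.79 in PyMT, became -0.72 and -0.79 in that band of depth. With means of each cell's CPM the KPC ratio of Ehd3 was 0.51, so its sign in KPC changed with the setting.

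Venule over Car4/Cd300lg cells put 1 of 7 members past 2-fold in each library, beside 6.78% of all genes in KPC and 4.28% in PyMT. In KPC this was Ehd3, at 1.18 (1.04 to 1.32), with 0.68 (0.53 to 0.83) in PyMT. In PyMT it was Aqp1, at 1.65 (1.57 to 1.72), with -0.33 (-0.40 to -0.27) in KPC. In the depth band the Ehd3 ratio was 1.54 in KPC and 1.07 in PyMT, past 2-fold in both. Ehd4 was higher in venule cells of both, at 0.27 and 0.75, and Cav2 lower, at -0.91 (-1.10 to -0.72) and -0.58 (-0.81 to -0.37). Plvap was lower in KPC venule cells (-0.69) and at 0.09 (0.03 to 0.15) in PyMT, where the sign turned after thinning before classing (-0.03) and in the depth band (-0.06).

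Artery over Car4/Cd300lg cells rested on the fewest cells and put 2 of 7 members past 2-fold in KPC (15.9% of all genes) and 1 in PyMT (13.6%). These were Plvap at -1.10 (-1.21 to -0.99) and Aqp1 at -1.58 (-1.83 to -1.34) in KPC, and Ehd3 at -1.32 (-1.84 to -0.84) in PyMT. Aqp1 was 0.72 (0.55 to 0.88) in PyMT, higher in artery cells there and lower in KPC. That PyMT value shrank to 0.29 in the depth band and to 0.18 with means of each cell's CPM, both below its interval. The Ehd3 value in KPC, -0.37 (-0.84 to 0.07), rested on 45 UMIs, and became -2.64 after thinning before classing and -1.29 in the depth band. The depth band also took the PyMT value of Ehd3 to -0.94, under 2-fold. Cav2 (0.50 and 0.75) and Ehd4 (0.42 and 0.57) were higher in artery cells of both libraries, within 2-fold.

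Lymphatic over Car4/Cd300lg cells gave the largest count, 4 of 7 members in each library (3 in PyMT without cycling cells, Ehd4 then just under 2-fold), beside 16.6% of all genes in KPC and 11.7% in PyMT. Plvap (-2.59 and -1.23), Ehd3 (-2.01 and -2.20), Ehd4 (-1.71 and -1.08) and Aqp1 (337 against 1348 CPM, and 139 against 387) were lower in lymphatic cells of both libraries. The coat genes among the members were not past 2-fold: Cav1 stood at -0.30 and -0.53, Cav2 at -0.24 and -0.23, and Cavin1 at 0.21 and -0.24. Against the level over all vessel cells, lymphatic cells held 98.9% and 83.7% for Cav2 and 105% and 85.1% for Cavin1, but 19.9% and 28.3% for Ehd3 and 37.5% and 42.1% for Aqp1.

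**Figure D2:**
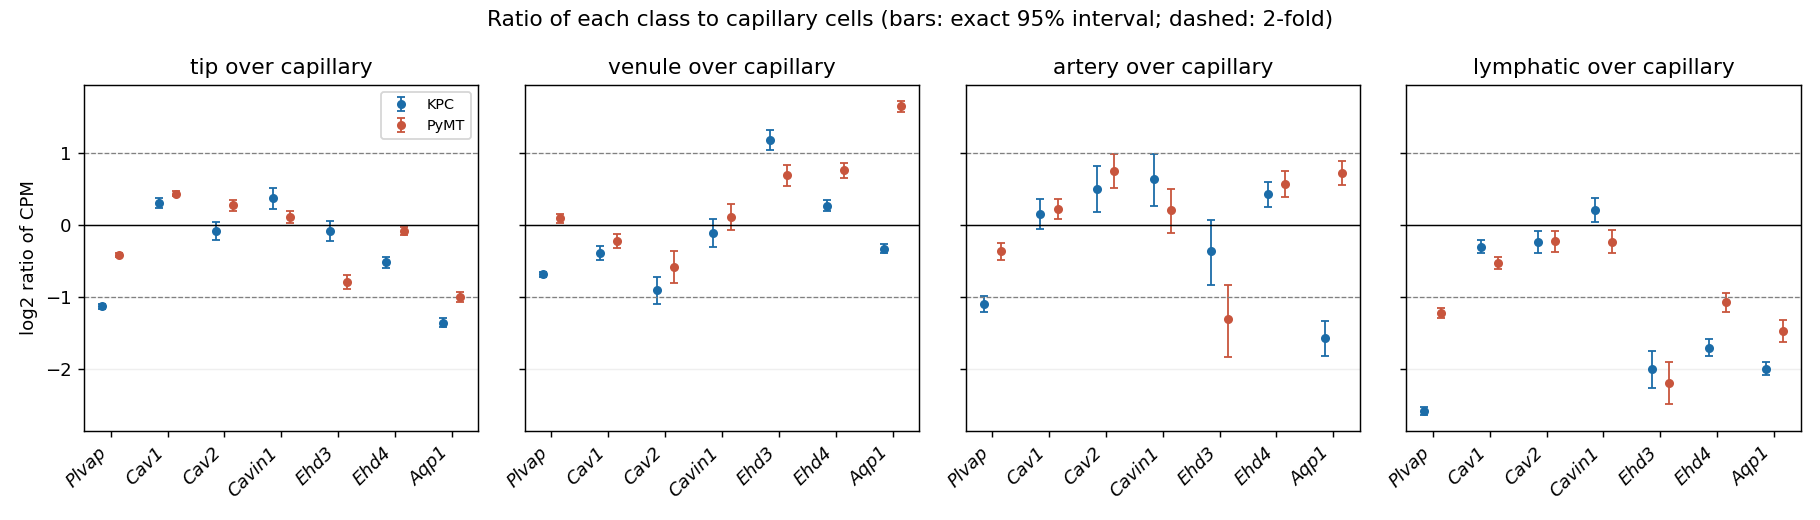
log2 ratio of CPM of tip, venule, artery and lymphatic cells over Car4/Cd300lg cells ("capillary") for the 7 members that passed the filter, in KPC and PyMT. Points are 1 library each, bars are exact 95% intervals and dashed lines mark 2-fold; the lymphatic panel holds 4 members under the lower line in both libraries, and Aqp1 lies on opposite sides of 0 in the venule and artery panels.

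Class minimums divide cells sharply, so levels were also read along the marker sums themselves, over vessel cells thinned to 2000 UMIs. With rising Apln and Angpt2, the tip markers, Cav1 rose from 495 CPM (477 to 515) at 0 UMIs to 1138 (1056 to 1225) at 5 or more in KPC. In PyMT it rose from 654 (639 to 668) to 1337 (1233 to 1448). Every step of Cav1 was upward in both libraries, and the caveolin Cav2 ended high as well, going from 163 to 296 CPM in KPC and from 171 to 330.4 in PyMT. Ehd3 went down along the same sum, from 279 (265 to 294) to 49.7 (33.8 to 70.5) in KPC and from 147 (141 to 154) to 52.9 (33.9 to 78.7) in PyMT. Plvap declined along it in KPC, from 3252 to 1799.7 CPM, and was 1324 and 1159 at the ends in PyMT. Ehd4 parted between libraries, from 669 to 437.5 in KPC and from 321 to 392 in PyMT. These trends were read in cells thinned to equal UMI counts, but the cells still differed in their own depth before thinning. Levels of some members varied with that depth, as given below. Between classes, Cav1 was likewise highest in tip cells of both libraries. For Cav2 and Ehd3 in KPC, the class ratios of tip over Car4/Cd300lg cells were each -0.09 with intervals including 0, unlike these trends. In the depth band these KPC ratios were 0.34 for Cav2 and -0.72 for Ehd3, in the direction of the trends. Thinning before classing gave 0.18 and -0.66, and means of each cell's CPM gave -0.18 and 0.51. The sums and the classes use the same marker genes and are a single observation.

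Along Ackr1 and Selp, the venule markers, Aqp1 rose from 926 CPM (904 to 948) to 1674 (1537 to 1819.8) in KPC. In PyMT it rose from 293 (285 to 302) to 2138 (1894 to 2405), with 65 cells at the top. Aqp1 also rose along Car4 and Cd300lg, from 824 CPM to 1953 at 3 to 4 UMIs and 1875 at 5 or more in KPC, and from 292 to 578 and 429 in PyMT. It thus went with both sums. Along Ackr1 and Selp, Ehd3 rose from 208 to 494 CPM in KPC and from 131 to 338 in PyMT, and Ehd4 from 588 to 1061 and from 320.1 to 677. The PyMT climbs of Ehd4 and Aqp1 along this sum were not steady. From 2 UMIs to 3 to 4 UMIs, Ehd4 fell from 889 to 598 CPM and Aqp1 from 1823 to 1341. Cav2 was 187 CPM at 0 venule UMIs and 113 at 5 or more in KPC, and 191 and 84.6 in PyMT. Along Car4 and Cd300lg, Plvap rose from 2558 to 5438 CPM in KPC and from 1136 to 2178 in PyMT. Ehd3 went opposite ways on that sum, from 252 (241 to 265) down to 46.9 (9.67 to 137; 32 cells) in KPC and from 120.4 (114 to 127) up to 189.8 (160.2 to 223; 382 cells) in PyMT. Cell by cell, Ehd3 and Aqp1 had r = -0.33 over the 597 KPC Car4/Cd300lg cells at 2000 UMIs and r = -0.04 over the 2367 of PyMT, a weak relation in sparse counts. The KPC value is given because it was the lowest r of any pair of members over the vessel classes and lymphatic cells of both libraries. Plvap and Aqp1 had an r of similar size and opposite sign, 0.32 over the same KPC cells and 0.34 over the remaining KPC cells. Aqp1 and Ehd3 also moved in opposite ways with depth in KPC, as given below, and a part of depth in this r was not tested.

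**Figure D3:**
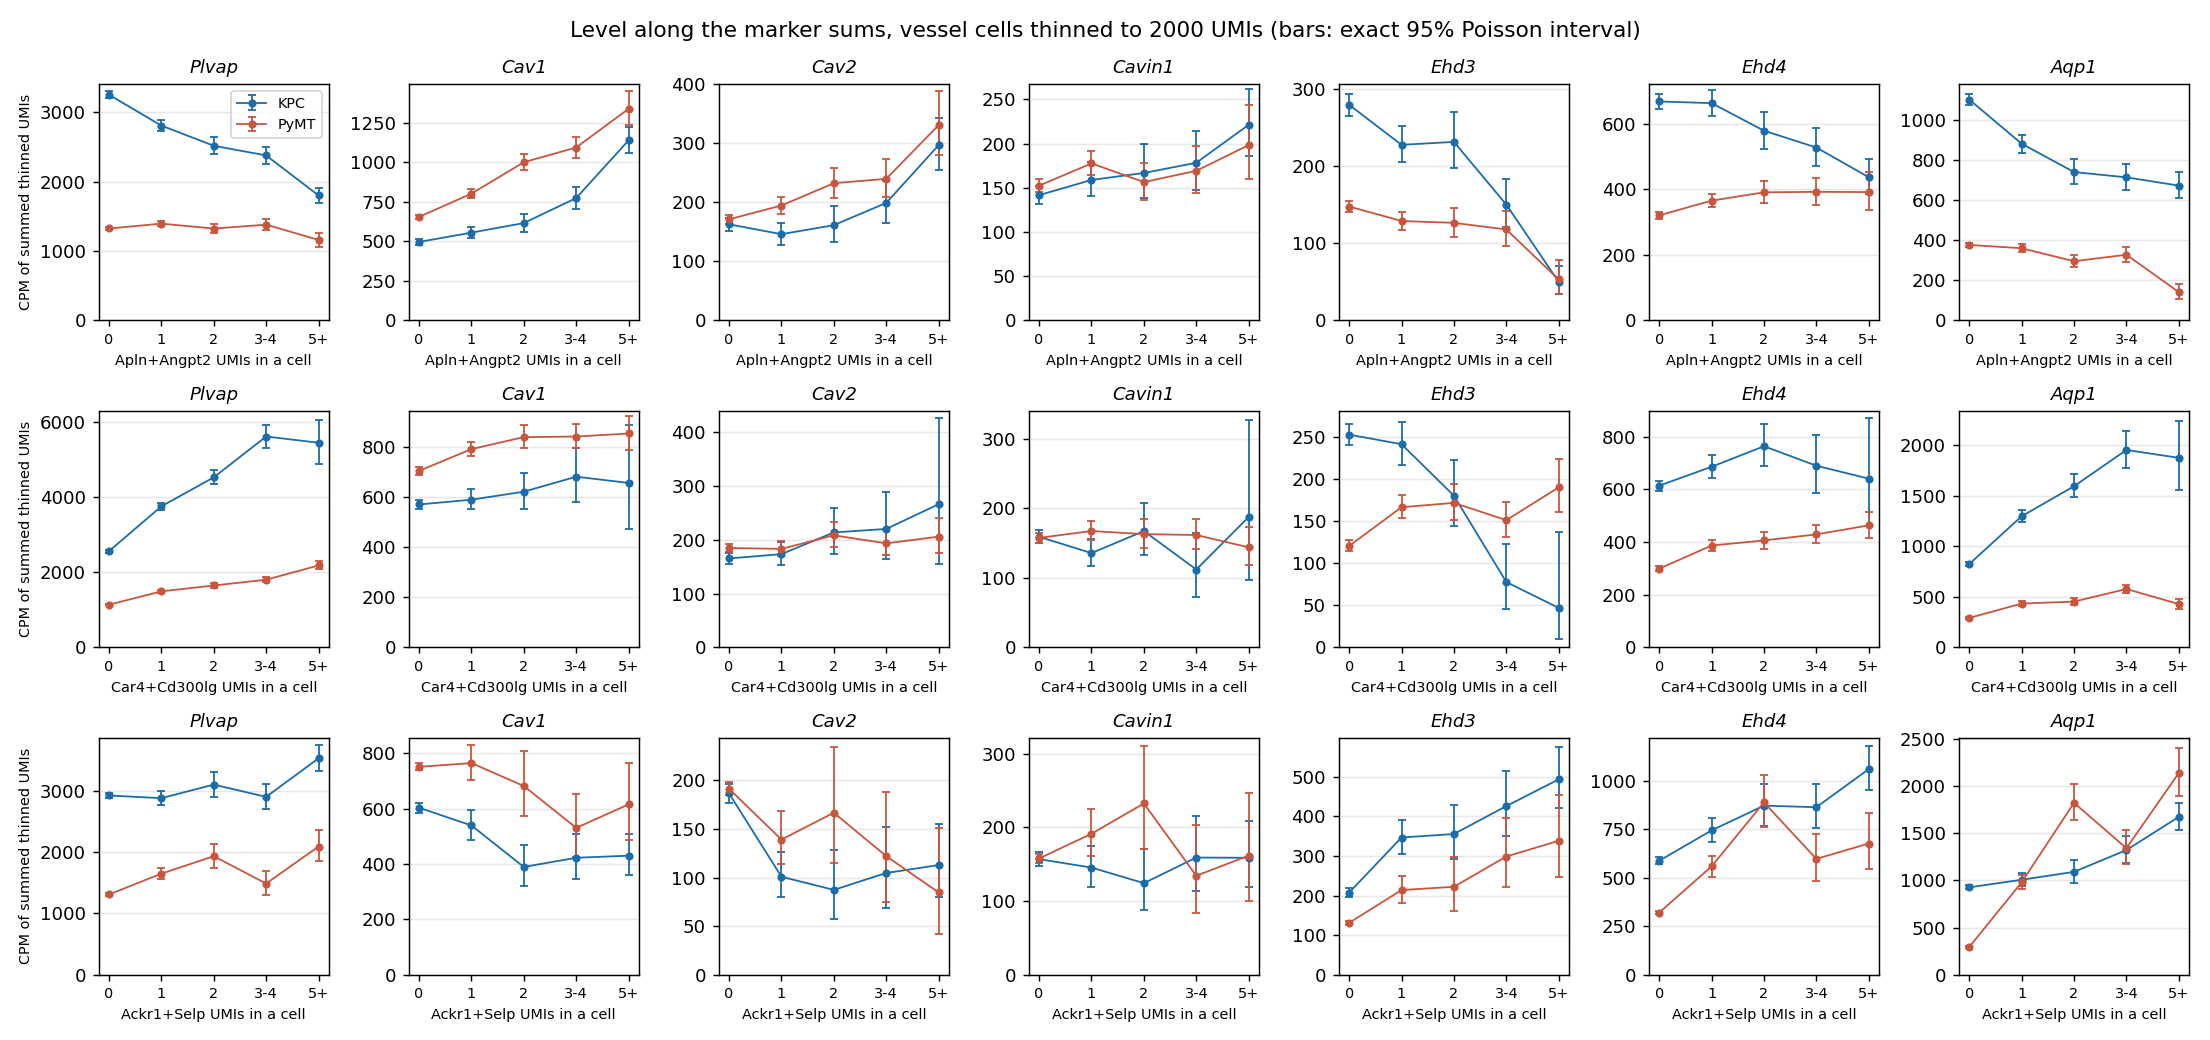
Level of 7 members (CPM of UMIs thinned to 2000 per cell, linear axes from 0) along the UMI sums of Apln+Angpt2, Car4+Cd300lg and Ackr1+Selp in vessel cells of KPC and PyMT. Points are bins of cells and bars exact 95% Poisson intervals; Cav1 climbs with Apln+Angpt2 to 1138 and 1337 CPM while Ehd3 drops to 49.7 and 52.9, and Ehd3 runs in opposite directions along Car4+Cd300lg.

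Over the 10 class levels (5 vessel classes in 2 libraries, log2 of CPM + 1, centered in each library), Cav1 and Cav2 had a Pearson r of 0.76 and Plvap and Aqp1 of 0.72. Ehd3 ran against the caveolins, with r of -0.94 to Cav2 and -0.75 to Cav1. These points share libraries and totals, so the values are a description only. The genes whose levels were most like those of a member among 7249 genes were Rtp3, Prkch and Pmp22 for Plvap (r of 0.98, 0.97 and 0.96), and Gatad1, Akt1 and Higd1a for Cav1 (0.90, 0.89 and 0.88). For Cav2 they were Rapgef1, Commd9 and Uaca (0.98, 0.97 and 0.96), and for Cavin1 Gm16286, 2310039H08Rik and Pls3 (0.97, 0.96 and 0.95). For Ehd3 they were Isyna1, Bst1 and Naa60 (0.98, 0.96 and 0.96), for Ehd4 Bcr, AU021092 and Ogdh (0.96, 0.96 and 0.96), and for Aqp1 Togaram1, H2-Q6 and Ahr (0.98, 0.97 and 0.97). Each is the highest of 7249 values over only 10 points.

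Within a class, PyMT was then set over KPC. In the Car4/Cd300lg class 2 of 7 members were past 2-fold, beside 10.9% of all genes: Plvap at -1.50 (-1.53 to -1.47) and Aqp1 at -1.80 (-1.86 to -1.74), both lower in PyMT. In tip cells 1 of 7 was, Aqp1 at -1.45 (-1.52 to -1.38), beside 3.15% of all genes. In venule cells 0 of 7 were (3.83% of all genes) and in artery cells 0 of 7 (16.7%). Plvap was lower in PyMT in all 4 classes, at -0.72 in venule, -0.77 in artery and -0.79 in tip cells, and Ehd4 was as well, from -0.85 in Car4/Cd300lg to -0.37 in venule cells. Cav1 was higher in PyMT in all 4, between 0.36 in Car4/Cd300lg and 0.53 in venule cells, each with an interval above 0, but the tip value of 0.50 became 0.06 in cells of 2000 to 4000 UMIs. Aqp1 split by class, at 0.18 (0.09 to 0.26) in venule and 0.49 (0.21 to 0.79) in artery cells. The Ehd3 ratio in artery cells, -0.95 (-1.64 to -0.29), came from 35 and 45 UMIs and was 1.57 after thinning before classing and 0.53 in the depth band, so its direction changed with these settings. Because the check genes do not mark the same cells in the Car4/Cd300lg classes of both libraries, the ratios of that class compare cells of 1 rule and not of 1 established type.

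**Figure D4:**
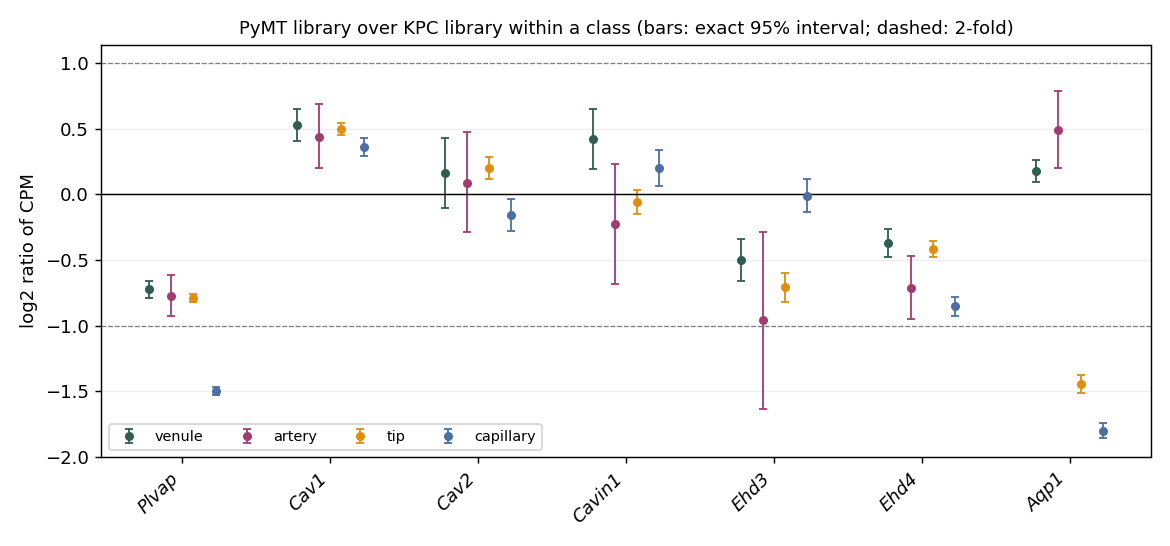
log2 ratio of CPM of the PyMT over the KPC library within venule, artery, tip and Car4/Cd300lg ("capillary") cells for 7 members. Points are single ratios of 1 library to 1 library, bars exact 95% intervals and dashed lines 2-fold; Plvap lies below 0 and Cav1 above 0 in all 4 classes, and Aqp1 lies near -1.80 in the Car4/Cd300lg class and at 0.18 in venule cells.

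Depth and division of cells moved with some members. When vessel cells were all thinned to 2000 UMIs and split by their own depth into 3 groups of near-equal size, Aqp1 was 1435 CPM in the shallowest group and 542 in the deepest of KPC, and 579 and 201 in PyMT, which is 2.65-fold and 2.89-fold. The same ratio for the other 6 members with measurable levels lay between 0.763 (Ehd3) and 1.54 (Plvap) in KPC and between 0.918 (Ehd3) and 1.22 (Plvap) in PyMT. Tip cells were the deepest vessel class. For Aqp1 in tip over Car4/Cd300lg cells, thinning before classing gave -1.35 in KPC and -0.87 in PyMT, and the depth band -1.01 and -0.68, lower in tip cells throughout but under 2-fold in PyMT. In cycling vessel cells (2 or more UMIs of Mki67 and Top2a; 762 in KPC and 1499 in PyMT), Aqp1 was 663 against 1064 CPM in KPC and 235 against 399.9 in PyMT in cells with none. Ehd3 was 180.4 against 258 CPM in KPC and 111 against 142 in PyMT. Cav2 differed by less than counting error in both (log2 ratio -0.07 and 0.02). The comparisons by depth and by cycling were chosen after the values above were seen.

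**Figure D5:**
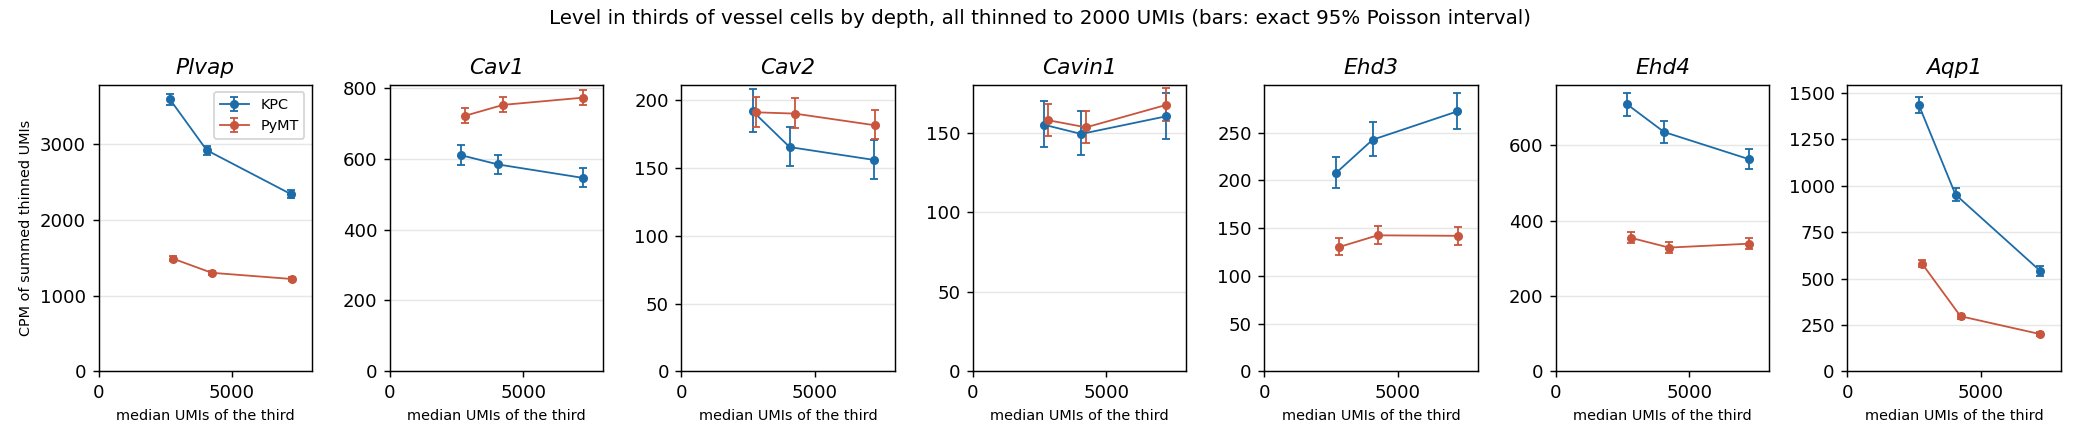
Level of 7 members (CPM of UMIs thinned to 2000 per cell, linear axes from 0) in 3 near-equal groups of vessel cells by depth, placed at the median UMIs of each group, in KPC and PyMT. Points are groups and bars exact 95% Poisson intervals; Aqp1 drops from 1435 to 542 CPM in KPC and from 579 to 201 in PyMT, while Cavin1 stays between 149 and 167 CPM.

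The wider pathway was counted from 6 lists. Over the comparisons above, 0.569% to 16.7% of all genes were past 2-fold. The lists are short, so a count of 0 or 1 is not read as a trait of a list. Of the caveolar coat list, 5 of 7 genes passed the filter in every comparison, and at most 1 was past 2-fold in any of them. That gene was Cavin2, named after its values were seen: it was 797 CPM in KPC and 190.4 CPM in PyMT Car4/Cd300lg cells (log2 ratio -2.07), whereas Cavin3 was 979 and 1059. Against Car4/Cd300lg cells, Cavin2 was past 2-fold lower in tip and artery cells of KPC and past 2-fold higher in lymphatic cells of PyMT. Of the 10 membrane-shaping genes, 7 or 8 passed. Ehd1, a paralog that acts in endocytic recycling, was past 2-fold higher in artery cells of both libraries (1.66 and 1.11) and in lymphatic cells (2.32 and 1.51). Ehd3 was past 2-fold lower in lymphatic cells of both, but in artery cells only in PyMT (-1.32). Its KPC artery value, -0.37, had an interval including 0. Among 11 aquaporins only Aqp1 passed in every comparison, and Aqp11, named after its values were seen, passed in 4. None of the 9 clathrin coat genes was past 2-fold between vessel classes or libraries, and 1, Cltb, also named after its values were seen, was lower in KPC lymphatic cells.

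Of the 11 receptors of transcytosis and endocytosis, 8 or 9 passed. Scarb1, the HDL receptor, was lower in artery cells (-2.07 and -1.48) and in lymphatic cells (-3.20 and -2.38). Gpihbp1, which carries lipoprotein lipase across capillaries, was lower in venule cells (-3.46 and -2.20) and lymphatic cells (-2.69 and -1.92), and Cd36, a fatty acid transporter, in lymphatic cells (-4.22 and -1.97). Insr was lower in lymphatic cells too (-2.03 and -1.83). In tip cells, 5 of 8 receptors of this list were past 2-fold lower in KPC and 0 in PyMT, where 7.66% and 0.569% of all genes were past 2-fold. Of the 9 barrier genes of brain endothelium, which include Mfsd2a, 3 to 5 passed. Cldn5, a tight junction protein, was higher in artery cells (1.98 and 1.33) and lymphatic cells (3.07 and 2.27) and lower in venule cells (-1.08 and -1.69). Lsr, a protein of tricellular junctions, gave 18 UMIs in artery against 2 in Car4/Cd300lg cells of KPC (log2 ratio of CPM 6.64, 4.57 to 9.79) and 12 against 12 in PyMT (4.70, 3.42 to 5.99), and passed the filter only through its artery level. Slc2a1 (-1.02 and -1.06) and the efflux pump Abcg2 (-1.08 and -1.24) were lower in lymphatic cells of both libraries.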

How the data were processed

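BECs were sorted from 1 KPC and 1 PyMT tumor preparation and sequenced as droplet libraries (44441942 and 55547926 UMIs, 10236 and 12464 barcodes). The authors aligned reads to mm10 with Cell Ranger (3.0 in the submitters' processing notes, 3.0.2 in the matrix header) and deposited raw UMI counts per gene and barcode, without normalization. Strand use in counting is not given in the sources used here. Every value here was computed from those counts with Python 3.11.15, numpy, scipy and pandas. Barcodes were kept from 500 detected genes upward if mitochondrial UMIs made up less than 10% (9591 KPC, 11744 PyMT). Classes were given in a fixed order by UMI sums: tumor Krt8+Krt18 (minimum 5), fibroblast Col1a1+Col1a2 (10), lymphatic Mmrn1+Prox1 (3), pericyte Notch3+Higd1b (2), venule Ackr1+Selp (3), artery Gja5+Sema3g (2), tip Apln+Angpt2 (3) and Car4+Cd300lg (2). No doublets were removed, and 7.59% (KPC) and 10.5% (PyMT) of cells met more than 1 rule.

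CPM of summed UMIs carry exact Poisson intervals and ratios exact conditional intervals, at 95% for counting error only. Thinning drew 2000 UMIs per cell (seed 1), leaving out 2902 KPC and 1322 PyMT vessel cells. Named genes are the 8 members, list genes past 2-fold the same way in both libraries (at most 4 per list), and the 3 genes most like each member (20 CPM or more in a class). Ratios and intervals were tested on simulated Poisson counts, the model that the intervals assume. That check does not cover variation between cells, mice or preparations. The members and lists were chosen with earlier results of these data known. The symbol Ccl21a, on more than 1 feature, was not used.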

Additional observations from a re-analysis of the deposited data

Results flagged for a closer look

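Aqp1 and Plvap in venule cells, Aqp1 in artery cells and Cavin1 in lymphatic cells lay on opposite sides of 0 in KPC and PyMT, with both intervals clear of 0. Each is a single ratio from 1 library per tumor model, and the difference between the libraries was not tested. Aqp1 in venule over Car4/Cd300lg cells was -0.33 (log2) in KPC and 1.65 in PyMT. Aqp1 in artery over Car4/Cd300lg cells was -1.58 in KPC and 0.72 in PyMT. This PyMT value kept its sign but fell to 0.29 in the depth band and 0.18 with means of each cell's CPM. The Aqp1 level of the Car4/Cd300lg class itself, the denominator of these ratios, was 1348 CPM in KPC and 387 in PyMT. Plvap in venule over Car4/Cd300lg cells was -0.69 in KPC and 0.088 in PyMT, with a Plvap denominator of 4605 and 1627 CPM. The PyMT value became -0.03 after thinning before classing and -0.06 in the depth band, on the same side of 0 as in KPC. Cavin1 in lymphatic over Car4/Cd300lg cells was 0.21 in KPC and -0.24 in PyMT, both well within 2-fold. The KPC value became -0.008 with means of each cell's CPM, so the opposite signs of Plvap and Cavin1 did not hold in every setting.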

How the results depend on the processing

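The 84 ratios of the 7 members were recomputed under 11 alternatives, of which 1, cells of 2000 to 4000 UMIs, was chosen after seeing the data. Of the 19 ratios past 2-fold none changed sign, and 17 to 19 stayed past 2-fold; of all 84, at least 71 kept their sign. Counts of members past 2-fold moved as follows. PyMT over KPC in artery cells (0) became 1 with a stricter barcode filter (1000 genes, 5% mitochondrial), 1 with minimum sums raised by 1, 2 after thinning before classing and 1 in the depth band. PyMT over KPC in tip cells (1) became 2 without cells that met more than 1 rule. Tip over Car4/Cd300lg cells in PyMT (1, Aqp1 at -1.01) became 2 without cells that met more than 1 rule, and 0 with the stricter barcode filter, with thinning, with a Pecam1 or Cdh5 UMI required, without the 5% deepest cells and in the depth band. Venule over Car4/Cd300lg cells became 0 in KPC with the stricter filter, and 2 with means of each cell's CPM in KPC and PyMT and 2 in the depth band in PyMT. Artery over Car4/Cd300lg cells in PyMT (1) became 0 in the depth band, and in KPC (2) it became 3, with Ehd3 added, in 4 settings: minimum sums raised by 1, cells of more than 1 rule left out, thinning and the depth band. Lymphatic over Car4/Cd300lg cells in PyMT (4) became 3 without cycling cells. No other count moved. Cause was not tested beyond these settings.

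The share of all genes past 2-fold rose with a filter of 1 CPM in place of 10 and, in second place, stood as follows with no filter and 1 CPM added. For tip over Car4/Cd300lg cells it was 13.3% and 7.01% in KPC and 2.24% and 0.747% in PyMT, for venule 14% and 8.80%, and 12.1% and 6.99%, for artery 28.9% and 25.8%, and 26.5% and 19.1%, and for lymphatic 24.3% and 17.3%, and 20.0% and 13.2%. For PyMT over KPC it was 12.7% and 9.66% in venule, 34.0% and 33.1% in artery, 7.36% and 3.82% in tip and 17.6% and 10.5% in Car4/Cd300lg cells. Median-of-ratios scaling shifted all genes by over 0.1 only for PyMT over KPC in artery (-0.11) and Car4/Cd300lg cells (-0.11). No paired analysis was possible because each tumor model has 1 library. Artery values rest on 105 and 126 cells, and a gene at 0 UMIs cannot be told from one under the floor given with it.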
